A study of Mus musculus with 24 samples.

Results

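Microglia of the mouse ventral hippocampus are described here across the genes counted in their nuclei. They were taken by a deposited cluster label. In the table of RNA counts this gives the 4 columns whose label names microglia (MGC), 1 for each library, against all other labels. These 4 of 68 columns hold 1093 of 30880 nuclei (3.54%), which is 1 of 17 cell type labels. The study compared inbred strains in single nuclei by RNA, chromatin accessibility and DNA methylation, and DNA methylation was not used here. The groups are adult male C57BL/6J mice (B6) and adult male DBA/2J mice (DBA in the labels, D2 here), aged 10 to 16 weeks and given no treatment. Each strain has 2 RNA replicates and 2 accessibility replicates, each made from about 2 pooled animals, so a difference between replicates is one between pools. Nuclei for RNA were sorted to a set mixture of neuronal and non-neuronal nuclei with NeuN, a protein of neuronal nuclei, and nuclei for accessibility were not enriched in that way. Libraries are called 2 and 3 in the tables but replicates 1 and 2 in the labels, so only the strain was taken from the labels.

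Microglia are the resident macrophages of the brain parenchyma, derived from yolk sac progenitors and renewed in place. They live on signals through the colony stimulating factor receptor, hold their resting state under TGF-beta, and watch their surroundings with fine processes that carry receptors for nucleotides, complement and lipids. In the hippocampus they are known for clearing dying cells and for removing synapses through the complement system.

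In B6, library 2 held 289 microglia of 8707 nuclei (3.32%, exact 95% binomial interval 2.95 to 3.72) and library 3 held 358 of 7858 (4.56%, 4.11 to 5.04). In D2, library 2 held 204 of 8003 (2.55%, 2.21 to 2.92) and library 3 held 242 of 6312 (3.83%, 3.37 to 4.34). The intervals cover counting error only, and the shares of the strains overlap, since D2 library 3 lies above B6 library 2. Among non-neuronal nuclei, which the sort does not dilute with neurons, microglia made up 10.5% and 12.6% in B6 and 8.26% and 10.6% in D2. The microglial columns sum 514337 and 744129 counts in B6 and 439262 and 593279 in D2. A microglial nucleus gave on average 1780 and 2079 counts in B6 and 2153 and 2452 in D2, against 6671 and 6648 over all nuclei of each strain. Levels below are in CPM, counts scaled to the same total in every column, in the order library 2, library 3, and are compared between nuclei for 1 gene at a time, since no correction for gene length was made.

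The label was checked against 3 defining markers. Csf1r, the receptor for the growth factors that microglia need to survive, stood at 1182 and 1257 CPM in B6 and 1219 and 1244 CPM in D2, and no other label passed 6.97 CPM. Cx3cr1, the receptor for the neuronal chemokine fractalkine, stood at 1310.0 and 1341 CPM in B6 and 1274 and 1450.2 CPM in D2, against at most 35.3 CPM elsewhere. P2ry12, an ADP receptor that steers microglial processes toward injury, stood at 828 and 864 CPM in B6 and 1155 and 1267 CPM in D2. All 3 markers were higher in each of the 4 microglial columns than in any other label. P2ry12 was nevertheless counted widely, with 307 CPM (B6) and 267 CPM (D2) in dentate gyrus neurons (Exc-DG), so its lowest ratio to another label was 2.69. The gene lies inside Med12l on the opposite strand, and whether the counting used the strand is not given, so reads of the 2 genes cannot be told apart. P2ry13, P2ry14 and Gpr171 lie inside Med12l too. P2ry14, a receptor for UDP sugars in the same stretch, stood at 906 and 779.5 CPM in Exc-DG and at 67.2 and 30.1 CPM (B6) and 23.9 and 51.1 CPM (D2) in microglia.

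A symbol was called an identity gene where it averaged at least 50 CPM over the 4 microglial columns and, in each of them, reached at least 4 times the highest other label of the same strain, with 1 CPM added on both sides. Of 22067 symbols with at least 10 counts in each strain over all labels, 320 met this, or 1.45%. Since the nuclei were clustered on their genes, these levels are a description and carry no test. Together the 320 genes took 11.0% and 11.1% of the counts of the B6 columns and 11.4% and 11.2% of the D2 columns. In the other labels they took at most 0.649% in B6 and 0.592% in D2, in both strains in the vascular and leptomeningeal cells (NN-VLMC). The median of the lowest ratio was 12.3, 140 genes passed 16 and 17 passed 100. Just inside the fold of 4 were Bmp2k (4.04), Pon3 (4.08) and Ppcdc (4.09), and just outside were Cyb561a3 (3.98) and Sipa1 (3.88). With all other nuclei pooled as the comparison 727 genes pass, with counts per nucleus 200 do, with a fold of 2 529 do and with a fold of 8 201 do.

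**Figure D1:**
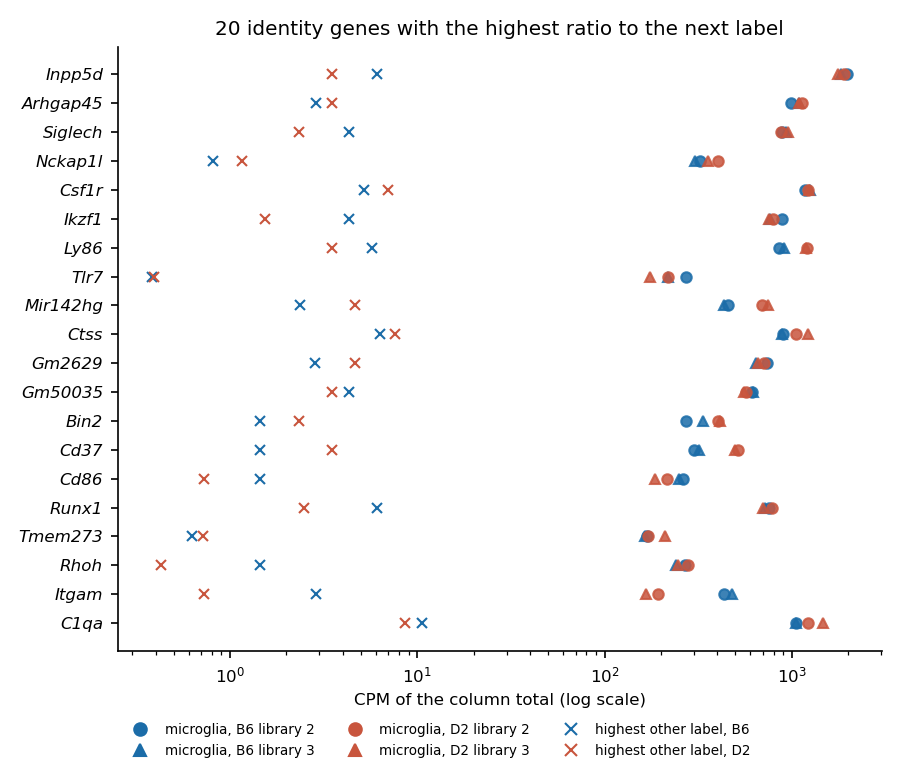
Levels of the 20 identity genes with the highest ratio to the next label. Each row is a gene, the horizontal axis is CPM of the column total on a log scale, circles and triangles are the 4 microglial columns, and crosses are the highest other label in each strain. Inpp5d lies between 1759 and 1979.9 CPM in microglia and at or under 6.12 CPM in every other label.

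The highest ratio belonged to Inpp5d, which encodes SHIP1, a lipid phosphatase that dampens signals from immune receptors. It stood at 1979.9 and 1838 CPM in B6 and 1897 and 1759 CPM in D2, at least 258 times the next label, and the strains overlap. Of the 19 genes that follow it, Arhgap45 and Nckap1l act on the actin cytoskeleton, Siglech is a sialic acid lectin, Ikzf1 and Runx1 are blood cell transcription factors and Ly86 and Tlr7 serve innate sensing. Mir142hg hosts a microRNA of blood cells, Ctss encodes the lysosomal protease cathepsin S, Bin2 and Cd37 are membrane organisers of leukocytes, Cd86 costimulates T cells, Rhoh is a GTPase of blood cells, and Itgam and C1qa belong to the complement system. Csf1r itself had the fifth highest ratio, 153. Gm2629, Gm50035 and Tmem273, whose roles are less well known, complete the 20.

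For regulatory sequence, the promoters of identity genes were searched for GAGGAAGT on either strand, the purine-rich core bound by ETS factors of the PU.1 class, since Spi1, which encodes PU.1, is itself an identity gene. Of 320 windows of 250 bases before the start sites of 247 identity genes found in the RefSeq promoter table (build GRCm38.p6), 22 (6.88%) hold the letters, against 802 of all 32851 windows (2.44%). The shorter GAGGAA, which lies within it, is held by 33.8% and 23.3% of windows. The 4 promoters below are given, 5′ to 3′ on the strand of the gene, with the match in capitals. Inpp5d (chr1:87620062-87620311, plus strand) is shown for its ratio, Vav1 (chr17:57278850-57279099, plus strand) as a signalling partner described below, Havcr2 (chr11:46454681-46454930, plus strand) for a match that ends at the start site, and Nlrp1b (chr11:71230734-71230983, minus strand) because its level differed between the strains. The last line is the middle of an accessible peak over the start of Nckap1l (chr15:103453513-103453712, plus strand).
Inpp5d: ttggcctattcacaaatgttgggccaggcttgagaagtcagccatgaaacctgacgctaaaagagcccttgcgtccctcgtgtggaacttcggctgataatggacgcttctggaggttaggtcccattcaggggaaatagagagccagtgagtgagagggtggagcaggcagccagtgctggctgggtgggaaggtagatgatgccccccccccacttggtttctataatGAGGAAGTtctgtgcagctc
Vav1: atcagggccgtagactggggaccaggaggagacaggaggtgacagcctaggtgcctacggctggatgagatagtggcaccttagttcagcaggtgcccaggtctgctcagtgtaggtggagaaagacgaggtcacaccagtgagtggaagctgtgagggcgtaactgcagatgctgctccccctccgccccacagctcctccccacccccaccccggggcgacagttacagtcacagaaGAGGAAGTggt
Havcr2: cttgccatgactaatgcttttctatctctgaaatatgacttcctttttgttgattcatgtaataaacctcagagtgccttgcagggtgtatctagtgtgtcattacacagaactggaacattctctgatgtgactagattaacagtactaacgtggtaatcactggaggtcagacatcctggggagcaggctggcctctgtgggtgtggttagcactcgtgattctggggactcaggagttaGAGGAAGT
Nlrp1b: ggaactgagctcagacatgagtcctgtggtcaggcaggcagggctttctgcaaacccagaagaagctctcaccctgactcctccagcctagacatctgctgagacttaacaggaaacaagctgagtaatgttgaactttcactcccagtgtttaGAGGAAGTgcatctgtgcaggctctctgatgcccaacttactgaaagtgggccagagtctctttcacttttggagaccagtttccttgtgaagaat
Nckap1l peak: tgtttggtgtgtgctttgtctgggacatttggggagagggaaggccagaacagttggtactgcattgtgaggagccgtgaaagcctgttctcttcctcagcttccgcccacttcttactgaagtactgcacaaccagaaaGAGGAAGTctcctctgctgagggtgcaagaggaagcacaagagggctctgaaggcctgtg
In Inpp5d, Vav1 and Havcr2 the match begins 20, 11 and 8 bases before the start site, and in Nlrp1b 96 bases before it. A match is a description of the letters and not a bound site.

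Transcription factors of the myeloid lineage come first by role. Of 22 eligible factors on the list, 9 were identity genes, namely Spi1, Irf8, Irf5, Runx1, Ikzf1, Mef2a, Sall1, Fli1 and Elf4. Spi1, the factor that commits cells to the myeloid line, stood at 196 and 246 CPM in B6 and 219 and 218 CPM in D2, and no other label passed 2.32 CPM. Irf8, its partner on shared sites, stood at 182 and 216 CPM in B6 and 196 and 206 CPM in D2. Sall1, the factor that sets microglia apart from other macrophages, stood at 241 and 292 CPM in B6 and 317 and 308 CPM in D2. Its next labels were NN-VLMC in B6 (27.4 CPM) and oligodendrocytes in D2 (38.0 CPM), so its lowest ratio was 7.93. Runx1 reached a lowest ratio of 101 and Ikzf1 of 144, while Fli1, an ETS factor also known from endothelium, reached 4.52 because NN-VLMC held 134 CPM in B6. Mef2c, which restrains microglial activation and also works in neurons, stood at 1602 and 1867 CPM in B6 and 2226 and 2097 CPM in D2. It was not an identity gene, since interneurons of the Inh-MGE label held 836 and 816 CPM. Maf was likewise shared with interneurons and NN-VLMC, at 317 and 348 CPM. Mef2c and Maf were thus counted in microglia without being limited to them.

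Growth factor and cytokine receptors gave 10 identity genes of 18. Besides Csf1r these are Csf3r, Tgfbr1, Il10ra, Il6ra, Ifngr1, Tnfrsf1b, Tnfrsf11a, Il1rl2 and Il21r. Tgfbr1, the signalling receptor of TGF-beta, stood at 2284 and 2799 CPM in B6 and 2335 and 2432 CPM in D2, with 186 and 301 CPM in NN-VLMC. Its partner Tgfbr2 missed the fold at 3.13, again through NN-VLMC. Csf3r, the receptor for the neutrophil growth factor G-CSF, stood at 423 and 427 CPM in B6 and 391 and 367 CPM in D2, with at most 3.45 CPM elsewhere. Il10ra, the ligand-binding chain for the anti-inflammatory cytokine IL-10, stood at 271 and 268 CPM in B6 and 305 and 261 CPM in D2. The libraries of the strains overlap for Tgfbr1 and Il10ra and not for Csf3r, and no receptor of the list passed the test given below.

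Several ligands of these receptors were highest in other cells. Il34, a ligand of Csf1r, was highest in NN-VLMC at 333 CPM (B6) and 227 CPM (D2), and stood at 11.9 and 8.22 and 9.54 and 7.05 CPM in microglia. Csf1, the other ligand, was highest in oligodendrocytes (NN-ODC) at 89.1 and 95.9 CPM. Cx3cl1, the ligand of Cx3cr1, was highest in the excitatory label Exc-Gpc6 at 89.8 and 92.0 CPM. Cd200, whose receptor quiets myeloid cells, was highest in the CR-CR label in B6 (89.3 CPM) and in entorhinal excitatory neurons (Exc-ENT) in D2 (46.7 CPM). These ligands were thus counted in vascular cells, glia and neurons beside receptors that were counted in microglia. Other ligands were counted in the microglia themselves. Gas6, Cd47, Tgfb1 and Pros1 averaged at least 50 CPM there, and of them only Tgfb1 was an identity gene, at 117 and 155 CPM in B6 and 150.3 and 241 CPM in D2, against at most 16.3 CPM in another label. Sirpa, the receptor for the signal Cd47 that spares cells from engulfment, was the other identity gene of the 11 eligible genes of this list.

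**Figure D2:**
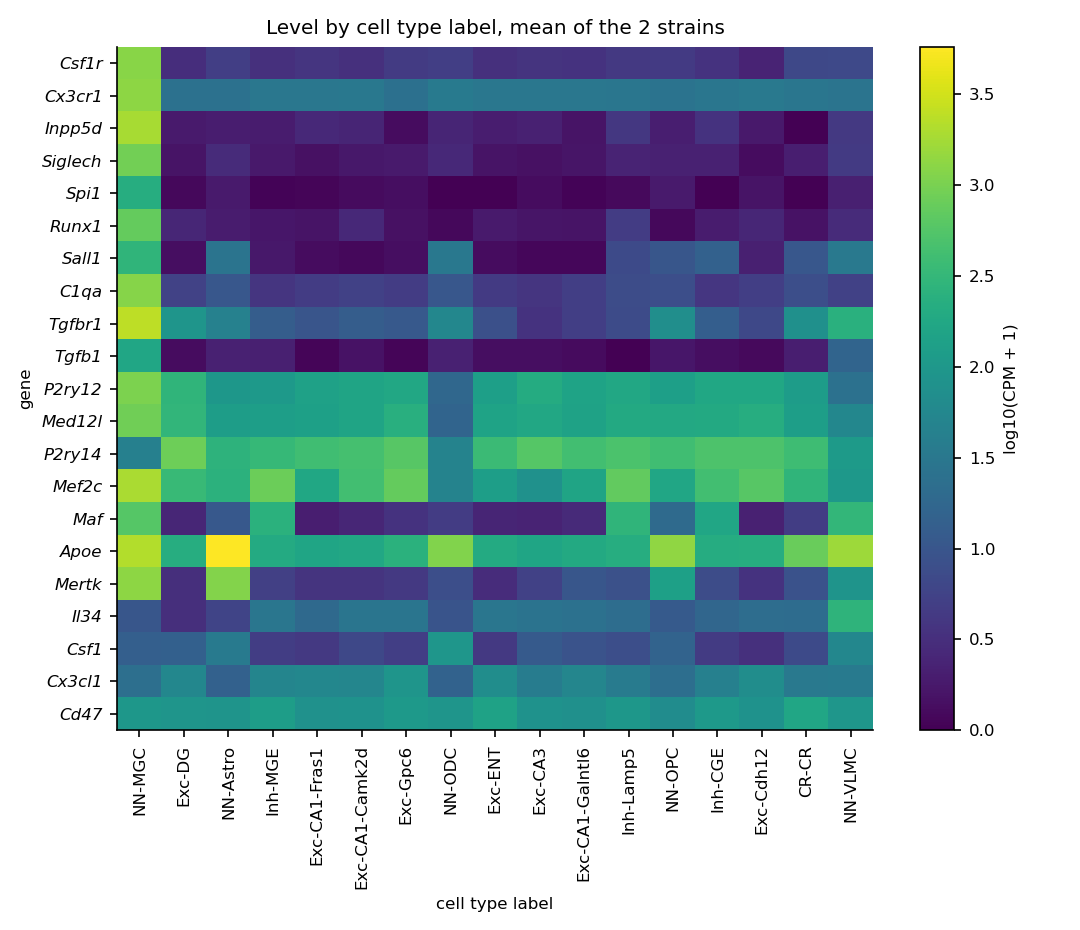
Levels of 21 genes (vertical axis) over the 17 cell type labels (horizontal axis), as the mean of the strains on the scale log10 of CPM plus 1. Csf1r, Inpp5d and Siglech are bright in the microglial column only, Apoe and Mertk are shared with astrocytes, and Il34 is brightest in NN-VLMC, at 333 CPM in B6.

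Signalling from ITAM and Fc receptors was the functional list with the largest share of identity genes after the microglial markers themselves, 20 of 25 eligible members. Tyrobp, the adaptor that carries the ITAM, stood at 211 and 227 CPM in B6 and 184 and 285 CPM in D2. Trem2, the lipid receptor that signals through it, stood at 320.1 and 305 CPM in B6 and 348 and 418 CPM in D2. The kinase Syk, which reads the phosphorylated ITAM, stood at 241 and 214 CPM in B6 and 157 and 178 CPM in D2. All 3 steps, from receptor to kinase, were thus counted in each library. Downstream, the phospholipase gene Plcg2, the adaptor genes Blnk and Lcp2 and the exchange factor Vav1 were identity genes, with lowest ratios of 7.04, 24.7, 50.3 and 38.5. The Fc receptors Fcgr1, Fcgr2b and Fcgr3 and their shared chain Fcer1g were identity genes, and Fcgr4 was not eligible. Dock8, an exchange factor for Cdc42, reached 82.5. The 5 members outside were Dock2, Dock10, Vav3, Arhgap15 and Rasgrp3, each with a high level in another label, such as 2633 and 2438 CPM of Dock10 in oligodendrocytes.

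The complement list held 6 identity genes of 15. C1qa, a chain of the C1q molecule that tags synapses and debris, stood at 1055 and 1049 CPM in B6 and 1217 and 1468 CPM in D2. C1qb stood at 790.4 and 755 and 479.5 and 666 CPM, and C1qc at 848 and 757 and 408 and 455 CPM, in the same order of strains. The 3 genes lie side by side on chromosome 4, and C1qc was lower in D2 by the test below, while C1qa (edgeR adjusted p = 0.0556) and C1qb (edgeR adjusted p = 0.072) did not pass. Itgam and Itgb2, the chains of the complement receptor CR3, and C5ar1, a receptor for the fragment C5a, complete the 6. The proteases C1ra and C1s1, which C1q needs to start the cascade, had at most 2.39 and 1.37 CPM in any microglial column, and C3, the central component, was not eligible. C4b had 7.90 and 9.59 and 4.77 and 0 CPM in microglia, with 43.2 CPM in B6 astrocytes. The 6 genes are thus the recognition molecule and receptors, while the proteases and substrates of the list were at or near 0 in microglia.

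Genes of phagocytosis and of the disease-associated state gave 4 identity genes of 20, Trem2, Tyrobp, Cd33 and Stab1. Of the 20, 10 averaged at least 50 CPM, among them Apoe, Trem2 and Tyrobp, which are known to rise when microglia meet plaques or dying myelin. Other genes known to rise in that state were low. Spp1 stood at 1.98 and 0 and 16.7 and 8.81 CPM, Gpnmb at 0 and 0 and 0 and 7.05 CPM and Lpl at 11.9 and 6.85 and 14.3 and 15.9 CPM, in the order B6, D2. Cst7 and Lgals3 had at most 2.74 and 1.76 CPM in any microglial column, and Itgax and Clec7a were not eligible. Spp1 and Lpl were higher in another label of each strain. Apoe, the lipid carrier, stood at 1819.8 and 1757 CPM in B6 and 2366 and 2634 CPM in D2, but astrocytes held 5208 and 6306 CPM. Mertk, the receptor kinase that binds dying cells, was shared with astrocytes in the same way, at 1179.7 and 1101 CPM there and 1628 and 1752 CPM (B6) and 1114 and 862 CPM (D2) in microglia.

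The lysosome list held 10 identity genes of 22. Of the cathepsins, Ctss (121), Ctsd (10.0), Ctsc (5.74) and Ctsz (5.38) passed by their lowest ratio, while Ctsa, Ctsb, Ctsh and Ctsl did not. Lgmn, an asparagine protease of the lysosome, stood at 794 and 809 CPM in B6 and 763 and 784 CPM in D2. Laptm5, Cd68, Grn and Slco2b1 passed too. The general lysosomal membrane genes Lamp1 and Lamp2 had lowest ratios of 1.08 and 1.23, near those of other cells.

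Pattern recognition gave 10 identity genes of 26. Tlr7, an endosomal receptor for single-stranded RNA encoded on the X chromosome, stood at 273 and 218 CPM in B6 and 217 and 174 CPM in D2, and no other label passed 0.393 CPM. Tlr4, the receptor for bacterial lipopolysaccharide, stood at 111 and 94.5 CPM in B6 and 90.7 and 75.8 CPM in D2. Its coreceptor Cd14 and the related Ly86 and Cd180, which form a pair on the surface of leukocytes, were identity genes. The inflammasome sensors Nlrp3, Nlrp1b, Naip2 and Naip5 were too, and Naip2, Naip5 and the identity gene Naip6 lie side by side on chromosome 13. Their adaptor Pycard missed the fold at 3.40 and the protease Casp1 stood at 41.5 and 38.3 and 45.3 and 31.7 CPM. Tlr1, Tlr2, Tlr6 and Tlr8 stood under 30 CPM in each column, and Tlr9 was not eligible.

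**Figure D3:**
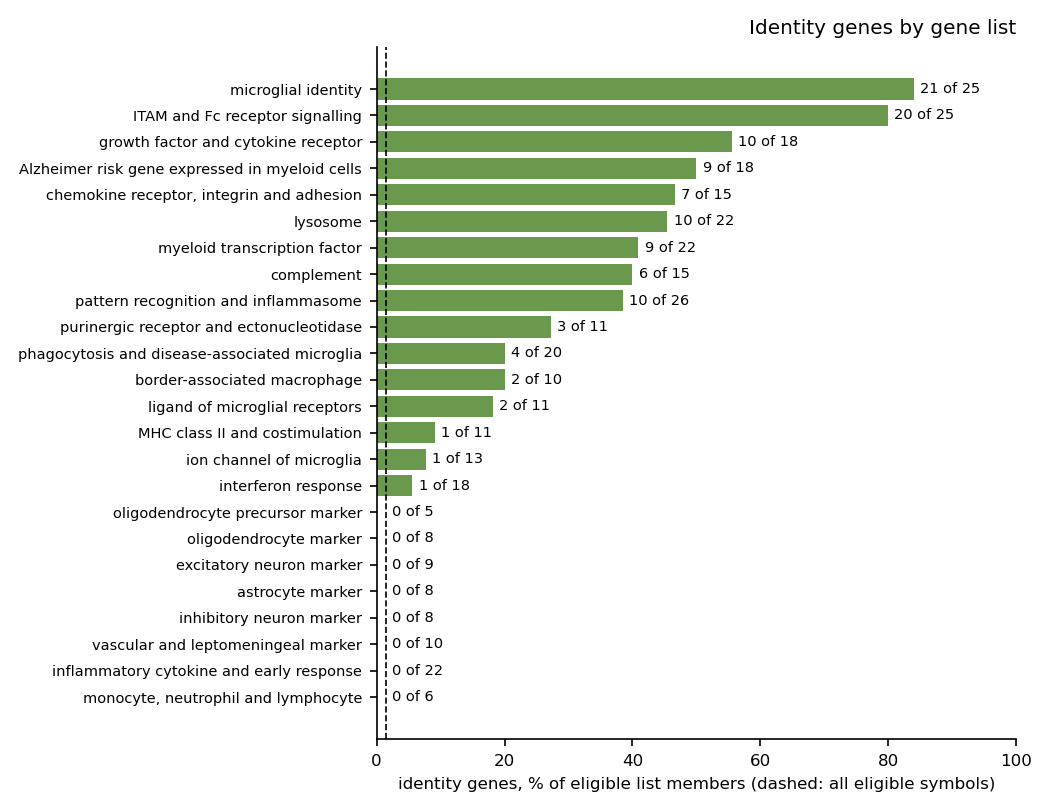
Share of the eligible members of each list that were identity genes (horizontal axis, %), with the counts beside the bars and the share of all eligible symbols, 1.45%, as a dashed line. The lists of microglial identity (21 of 25) and ITAM signalling (20 of 25) have the longest bars, and the lists of neurons, other glia and vascular cells have none.

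Nucleotide sensing gave 3 identity genes of 11, P2ry6, P2ry13 and Entpd1. P2ry6, a UDP receptor that triggers engulfment, stood at 285 and 262 CPM in B6 and 358 and 282 CPM in D2. Entpd1 encodes CD39, the enzyme that begins the breakdown of extracellular ATP, and stood at 996 and 872 CPM in B6 and 544 and 581 CPM in D2, without overlap. Nt5e, the enzyme that completes the step to adenosine, had 13.8 and 9.59 and 2.39 and 3.52 CPM in microglia and its highest level, 41.2 CPM, in D2 interneurons of the Inh-Lamp5 label. Adhesion and migration gave 7 of 15, among them Itgb5, a chain of the integrin that binds dying cells. Of the microglial markers proper, 21 of 25 were identity genes. The 4 that were not, P2ry12, Olfml3, Sparc and Golm1, averaged over 50 CPM but had other labels within a factor of 4.

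Genes of inflammation and early response were counted at low to moderate levels. None of 22 eligible ones was an identity gene, where 1.45% of all eligible symbols were, yet 20 had counts in microglial columns and 4 averaged at least 50 CPM. Nfkb1 was the most abundant, at 211 and 248 CPM in B6 and 265 and 293 CPM in D2, and the chemokine gene Ccl4 reached 157 CPM in D2 library 2. None of 6 eligible markers of monocytes, neutrophils and lymphocytes was an identity gene. Il1b stood at 3.95 and 0 CPM in B6 and 0 and 0 CPM in D2, Tnf at 7.90 and 5.48 and 16.7 and 12.3 CPM, and Fos at 0 and 0 and 0 and 1.76 CPM. Il10 and Fosb had no count in any microglial column, which allows up to 2.43 CPM in B6 and 3.04 CPM in D2 (3 counts over the columns of a strain). Il1a was low but close to restricted, at 29.6 to 38.2 CPM in microglia with at most 0.672 CPM elsewhere. Of the interferon response, 1 of 18 was an identity gene, Trim30a, and of MHC class II and costimulation 1 of 11, Cd86. Cd74, the invariant chain of MHC class II, stood at 27.7 and 38.3 CPM in B6 and 59.6 and 38.8 CPM in D2. Of the ion channels 1 of 13 was an identity gene, Kcnk6, a potassium channel. Of the genes near Alzheimer risk loci that myeloid cells express 9 of 18 were, with Inpp5d, Spi1, Trem2, Plcg2, Abi3, Cd33, Blnk, Cass4 and Grn.

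Border-associated macrophages, which line the vessels and meninges, share much with microglia, and their markers were counted in the same columns. Of 10, Mrc1 and Stab1 were identity genes. Mrc1, the mannose receptor, stood at 156 and 248 CPM in B6 and 248 and 132 CPM in D2. Pf4 stood at 15.8 and 16.4 and 47.7 and 21.1 CPM, Cd163 at 17.8 and 41.1 and 38.2 and 22.9 CPM and Lyve1 at 7.90 and 11.0 and 9.54 and 21.1 CPM, in the order B6, D2. All 10 had counts in microglial columns, with sums of 689.6 and 879 CPM in B6 and 880.3 and 571 CPM in D2, and Stab1 was the most abundant. Of 7 tested, 2 were called (28.6%, against 8.27% of all symbols tested). Stab1 fell in D2 by 0.85 on the log2 scale (edgeR adjusted p = 0.00131) and Clec10a rose by 1.77 (edgeR adjusted p = 0.00976). DESeq2 called neither. Stab1 was not called without D2 library 3, nor Clec10a without B6 library 3 or D2 library 2. The part of border-associated macrophages in the results was not tested, and single nuclei were not analysed here.

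Markers of neurons and other glia were counted in the microglial columns as well. All 9 genes of the excitatory list had counts there, with Syt1 the most abundant. They summed to 1322 and 1135 CPM in B6 and 620.3 and 879 CPM in D2. In B6 these sums are 17.5% and 15.0% of the level in excitatory labels and in D2 8.42% and 11.9%. The level of this list in interneurons was not compared, so the sums do not set excitatory neurons apart from other neurons. All 8 astrocyte markers summed to 674 and 667 CPM in B6 and 503 and 395 CPM in D2, led by Slc1a3. All 8 oligodendrocyte markers summed to 504 and 512 CPM in B6 and 446 and 268 CPM in D2. The 8 inhibitory markers summed to 316 and 199.9 CPM in B6 and 146 and 132 CPM in D2, led by Sst. So the sums of these 4 lists were lower in both D2 columns than in both B6 columns. The 10 vascular markers went the other way, with 98.8 and 61.6 CPM in B6 and 146 and 174 CPM in D2, led by Pecam1 and with Rgs5 at 0, and the 5 precursor markers summed to at most 40.6 CPM, led by Pdgfra. In edgeR's test 3 of 8 genes of the excitatory list (Grin2a, Snap25 and Syt1) fell in D2. The oligodendrocyte marker Mbp and 2 of 6 astrocyte markers (Slc1a2 and Slc1a3) fell too, and Pecam1 rose. Of all symbols tested 4.93% fell and 3.34% rose. DESeq2 called none of these genes, and each of them was lost without some 1 of the 4 libraries. Slc1a3 was lost in 3 of these 4 fits, and Slc1a2 in 2 and with the library number as a block. The part of these cells in the strain difference was not tested.

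The identity genes were placed on the genome. Positions were found for 316 of 320. Of these 89.6% are protein coding, against 75.6% of eligible symbols, and the median span is 30.3 kb against 20.5 kb. The identity rule asks for 50 CPM, while 11389 of the 22067 eligible symbols averaged under 10 CPM in microglia. These shares and spans were not matched by level. Within 50 kb of each other lie 82 identity genes, in 38 groups that include overlapping pairs. Among the groups are C1qa, C1qb and C1qc, the Naip genes, Tmem119 with Selplg, and Pik3r5 with Pik3r6, subunits of the same lipid kinase. This grouping was not compared with other symbols. Of 25 overlapping pairs, 23 lie on opposite strands, such as Fli1 with Gm27201, Tg with Sla and Mef2a with Lysmd4. Whether the counting used the strand is not given, so the counts of such a pair cannot be told apart.

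Accessibility was counted in 142 microglial nuclei of 27206, in 4 columns with 606554 and 346099 counts in B6 and 458117 and 355970 in D2. Their labels were transferred from the RNA clusters, so this too is a description. Of the 247 identity genes with a promoter in the table, 155 had a peak there, and in 81 of these (52.3%) microglia were the highest of 15 labels in both strains. Over all eligible genes with a promoter peak the count was 964 of 12371 (7.79%). The median ratio of microglia to all other nuclei, with 1 CPM added on both sides, was 3.02 at the promoters of identity genes and 1.40 over all genes. C1qb had the highest ratio, with 33.0 and 69.5 CPM in B6 and 37.1 and 30.9 CPM in D2 and 0.428 CPM in all other nuclei. Runx1 stood at 36.3 and 81.1 CPM in B6 and 54.6 and 53.4 CPM in D2, and Inpp5d, whose promoter is printed above, at 44.6 and 81.1 CPM in B6 and 26.2 and 36.5 CPM in D2. Sall1 differed, since astrocytes passed microglia in D2: its promoter peak stood at 76.0 and 151 CPM in B6 and 89.5 and 121 CPM in D2, with 93.3 and 131 CPM in astrocytes. The counts behind these values are small, 20 and 24 in B6 and 17 and 11 in D2 at C1qb.

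**Figure D4:**
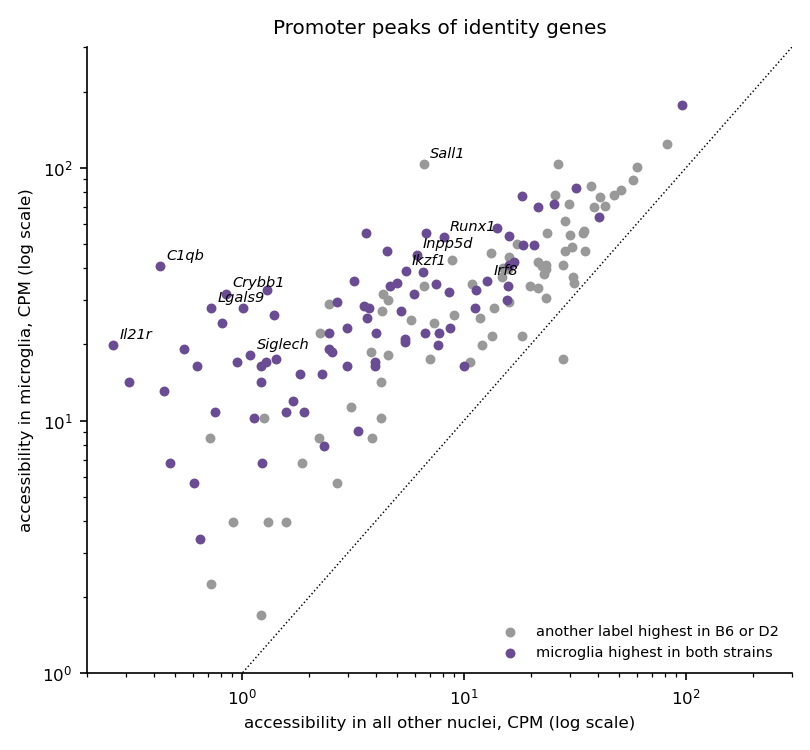
Accessibility at promoter peaks of 155 identity genes in microglia (vertical axis) against all other nuclei (horizontal axis), both in CPM on log scales, with a dotted line of equal values. Dark points are the 81 genes with microglia as the highest label in both strains, and C1qb lies at 40.8 CPM in microglia against 0.428 CPM.

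Among all peaks, promoters included, a rule chosen after seeing the data took peaks with at least 20 CPM on average over the 4 microglial columns and at least 4 times the highest other label in each. It gave 74 of 300346 peaks. Of these 29 (39.2%) lay within 100 kb of the start of an identity gene, against 2.72% of all peaks, and 19 lay inside an identity gene. A peak 2062 bases into Spi1 stood at 23.1 and 43.4 CPM in B6 and 21.8 and 16.9 CPM in D2. A pair of peaks lay inside Csf1r, 5318 and 8086 bases after its start, and the farther of them stood at 51.2 and 86.9 CPM in B6 and 67.7 and 61.8 CPM in D2. Other peaks lay inside Fli1, Ptpn6, Bin2 and Rgs10, at the starts of C1qb, Arhgap45, Il21r and Nckap1l, and inside P2ry12 and Med12l. In the middle 200 bases, 4 of 74 peaks (5.41%) held GAGGAAGT, against 1.33% of all peaks, and 35.1% held GAGGAA, against 19.6%. The count of peaks depends on the rule, with 118 at 10 CPM, 5 at 50 CPM, 218 at a fold of 2, 7 at a fold of 8 and 112 without B6 library 2.

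Between the strains, the question was which genes differ in microglia of D2 and B6. Over 8806 symbols tested, 294 were higher in D2 (3.34%) and 434 lower (4.93%), together 728 (8.27%), at an adjusted p under 0.05 in edgeR's quasi-likelihood test with 2 libraries per strain. Among the 320 identity genes 37 were higher and 28 lower, 65 in all or 20.3%. The rule asks for 50 CPM over the 4 columns together, and 13 of the 65, Phyhd1, Ccl6, Capn3 and Nlrp1b among them, lay under 50 CPM on average in 1 strain. Of the 302 genes at 50 CPM in each strain, a condition chosen after seeing the data, 52 were called (17.2%), 31 higher and 21 lower. For all 320 the median log2 difference was 0.07, against -0.01 over all symbols tested. Identity genes also have more counts than most symbols tested, with a median of 197 CPM against 49.2 CPM, and more counts make a call easier, so this share was not read as particular to them. With DESeq2 and its own filter 166 were called, 70 higher and 96 lower, of them 26 identity genes. All 26 are among the 65, and 33 of the 65 were called without any 1 of the 4 libraries. With symbols counted in 1 strain only taken in, 473 were higher and 461 lower.

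The genes that define microglia gave both outcomes. Csf1r, Cx3cr1 and Spi1 did not pass. Csf1r had a log2 difference of 0.02 (edgeR adjusted p = 0.959), Cx3cr1 of 0.05 (edgeR adjusted p = 0.875) and Spi1 of -0.02 (edgeR adjusted p = 0.979). P2ry12 was higher in D2, by 0.53 on the log2 scale with a standard error of 0.11 (edgeR adjusted p = 0.00374), with the strand limit given above. Of all 8806 symbols tested, 1797 had an unadjusted p under 0.05 in edgeR's test. None of 22 transcription factors was called by edgeR, where 3 had an unadjusted p under 0.05, and none by DESeq2. None of 17 growth factor and cytokine receptors was called by edgeR, where 1 had an unadjusted p under 0.05, and none by DESeq2. The ITAM list had 1 call of 25, Pik3ap1, where 8.27% of all symbols tested were called, and DESeq2 called none. An unadjusted p under 0.05 was found for 6 of the 25, where 1797 of all 8806 symbols had one. The list of microglial identity had 7 calls of 25 (28.0%), against 8.27% of all symbols tested, with 13 at an unadjusted p under 0.05, and DESeq2 called 4. Among lists by function the largest shares were in adhesion and migration (5 of 13) and nucleotide sensing (3 of 8). Complement (3 of 9), phagocytosis (4 of 12) and pattern recognition (6 of 20) followed. In this order DESeq2 called 2, 2, 2, 2 and 1 of them. Among those it did not call are P2rx7 (nucleotide sensing), C5ar2 (complement) and Nod1 (pattern recognition). P2rx7 and Nod1 were also lost with the library number as a block. The lists were not matched by level to all symbols tested. In adhesion and migration, Itgam and Cd200r1 were called without any 1 of the 4 libraries. Itgav and Icam1 were lost in each of these fits, and Selplg without library 2 of B6 or of D2.

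Among identity genes that rose in D2, Slfn8 differed most. This member of the Schlafen family stood at 43.5 and 79.4 CPM in B6 and 775 and 759 CPM in D2, a log2 difference of 3.59 with a standard error of 0.19 (edgeR adjusted p = 9.75e-13). In all other nuclei it stood at 0.0739 CPM (B6) and 0.297 CPM (D2), so few of its counts lay outside microglia. Ccl6, a chemokine of myeloid cells, stood at 13.8 and 23.3 CPM in B6 and 69.2 and 111 CPM in D2, a log2 difference of 2.25 (edgeR adjusted p = 8.87e-05). Cd200r1, the receptor for the quieting signal Cd200, stood at 51.4 and 73.9 CPM in B6 and 179 and 171 CPM in D2, a log2 difference of 1.45 (edgeR adjusted p = 7.4e-05). Lyz2, the lysozyme of macrophages, stood at 51.4 and 91.8 CPM in B6 and 165 and 206 CPM in D2, a log2 difference of 1.34 (edgeR adjusted p = 0.000357). For these 4 genes the lower D2 library lay above the higher B6 library. Glrp1, 6030468B19Rik, Gm3264, Npl, Slamf6 and Dennd2c rose too, with log2 differences of 1.62, 1.61, 1.36, 1.29, 1.23 and 1.17. Without D2 library 3 Slamf6 was not called, at 0.98 (edgeR adjusted p = 0.128), and DESeq2 did not call Gm3264, Slamf6 or Dennd2c. In the receptor pair for innate sensing, Ly86 rose by 0.44 and Cd180 by 0.85 on the log2 scale (edgeR adjusted p = 0.0123 and 0.000703), and DESeq2 called neither.

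Among identity genes that fell in D2, Phyhd1, a dioxygenase family gene, differed most. It stood at 486 and 503 CPM in B6 and 16.7 and 19.4 CPM in D2, a log2 difference of -4.74 with a standard error of 0.22 (edgeR adjusted p = 2e-13), and in all other nuclei at 22.5 and 0.507 CPM. Fcrls, an Fc receptor-like gene used as a microglial marker, stood at 573 and 679 CPM in B6 and 136 and 179.7 CPM in D2, a log2 difference of -1.96 (edgeR adjusted p = 5.38e-09). Nlrp1b, the inflammasome sensor of anthrax lethal factor, stood at 186 and 201 CPM in B6 and 33.4 and 42.3 CPM in D2, a log2 difference of -2.32 (edgeR adjusted p = 2.25e-07). Its neighbour Nlrp1a went the other way, at 15.8 and 30.1 CPM in B6 and 66.8 and 70.5 CPM in D2, a log2 difference of 1.52 (edgeR adjusted p = 0.00462) that DESeq2 did not call. Itgam, the alpha chain of CR3 and the surface marker CD11b, stood at 433 and 479 CPM in B6 and 193 and 167 CPM in D2, a log2 difference of -1.34 (edgeR adjusted p = 1.42e-06). C1qc fell by 0.88 on the log2 scale (edgeR adjusted p = 5.32e-05) and Entpd1 by 0.72 (edgeR adjusted p = 0.00038). Except for Nlrp1a, the higher D2 library of each of these genes lay below the lower B6 library. Capn3, Ifitm10, Tmigd3, Crybb1, Arhgap22 and Slc11a1 fell too, with log2 differences of -2.86, -2.53, -1.90, -1.40, -1.07 and -1.02. Slc11a1 was not called without B6 library 3, at -0.79 (edgeR adjusted p = 0.171), or without D2 library 2, at -0.95 (edgeR adjusted p = 0.0634), and DESeq2 did not call it or Crybb1.

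**Figure D5:**
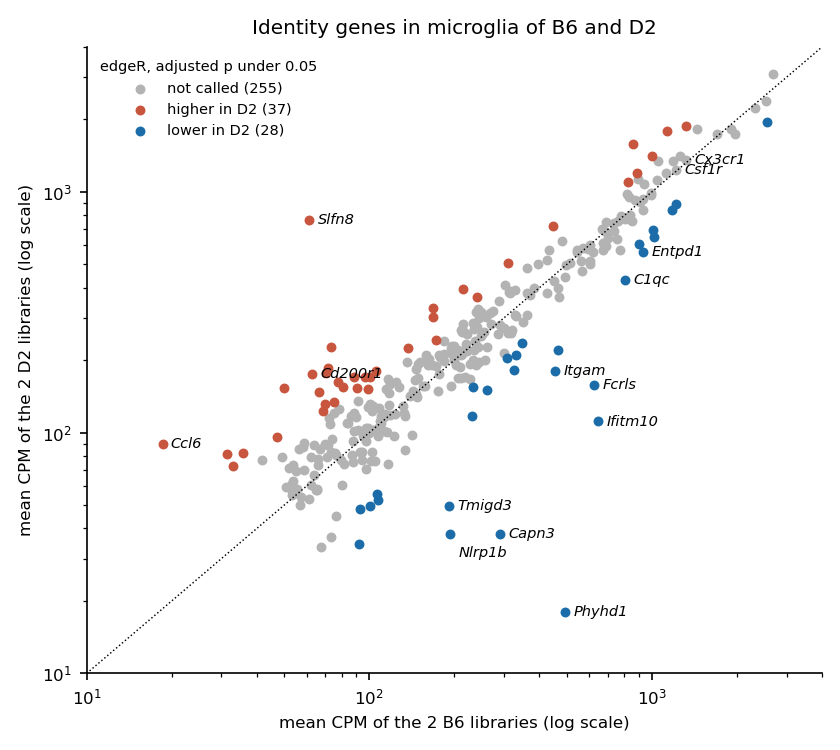
Mean levels of the 320 identity genes in B6 (horizontal axis) and D2 (vertical axis) microglia, in CPM on log scales, with a dotted line of equal values. Coloured points passed edgeR's test, 37 higher in D2 and 28 lower, and Csf1r and Cx3cr1 lie near the line.

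Outside the identity genes, several genes of microglial function differed. Mertk fell by 0.77 on the log2 scale (edgeR adjusted p = 0.000116) and Picalm, a clathrin adaptor near an Alzheimer risk locus, by 1.00 (edgeR adjusted p = 8.59e-06). Picalm stood at 733 and 750.5 CPM in B6 and 355 and 381 CPM in D2. Apoe rose by 0.49 (edgeR adjusted p = 0.0031), and its level in all other nuclei was 554 CPM in B6 and 757 CPM in D2. Cacna1a, a neuronal calcium channel gene, stood at 174 and 111 CPM in B6 and 692 and 626 CPM in D2 microglia, a log2 difference of 2.25 (edgeR adjusted p = 1.89e-09), while in all other nuclei it stood at 602 and 417 CPM. All 4 were also called by DESeq2 and without any 1 of the 4 libraries.

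Most of the largest differences lay in genes that differed in other cells too. Stab2 had no count in either B6 column and 209.9 and 291 CPM in D2, at least 103-fold higher against 3 counts over the B6 columns (edgeR adjusted p = 1.91e-11), and in all other nuclei stood at 9.67 and 119 CPM. Gm47015, also at 0 in B6, was at least 78.2-fold higher, and Mnd1 and Sfi1 followed with log2 differences of 5.88 and 4.87. Gm16271 lay between them and Gm47015, at 1.98 and 0 CPM in B6 and 59.6 and 70.5 CPM in D2. Lower in D2 were the mitochondrial genes mt-Co2 and mt-Co3, with log2 differences of -10.27 and -7.81, and Gng10 with -6.71. Trim5 and Brms1 were at 0 in D2, at least 22.8-fold and 18.7-fold lower. Trim5 was an exception, at 0.379 and 0.176 CPM in the other nuclei of B6 and D2. The nuclei were mapped to a separate sequence for each strain and the gene lists of the strains differ, with 884 symbols counted in B6 only and 5944 in D2 only by the minimum of 10 counts, and the part of this in the differences was not tested. Of the 728 symbols called, 143 differed at least 2-fold the same way in all other nuclei, with 1 CPM added on both sides. Of the 65 identity genes 3 did, namely Phyhd1, Capn3 and Cd200r1. A gene under 1 CPM in the other nuclei of both strains cannot reach 2-fold in this way. Crybb1, at 0.674 CPM (B6) and 0.0331 CPM (D2) there, is such a gene, so these counts leave out differences at low levels. In all other nuclei of B6 and D2, Capn3 stood at 10.3 and 1.20 CPM and Cd200r1 at 0.0923 and 1.78 CPM.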

How the data were processed

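RNA of single nuclei was measured in 4 samples and chromatin accessibility in 4, with 2 samples per strain in each. The authors mapped RNA reads with Cell Ranger 6.0.2, introns retained, to mm10 for B6 and to mm10 with exchanged variant bases for DBA, removed doublets with DoubletFinder, clustered the nuclei with Seurat 4.0.5 and deposited raw counts summed per cell type label and library. Columns of the other labels hold the same kind of deposited count, pooled here per strain. For accessibility the authors used Cell Ranger ATAC 2.0.0, called peaks with MACS, transferred labels from the RNA clusters and deposited counts per peak, with a table of nuclei for each assay. The authors tested strains per cell type with DESeq2.

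From these files, counts were scaled to the same column total (CPM) over symbols with at least 10 counts in each strain. Strains were compared in the 4 microglial columns only with edgeR 4.0.16 (TMM, filterByExpr, quasi-likelihood test, Benjamini-Hochberg over all 8806 symbols tested), tested on simulated data first. Alternatives were DESeq2 1.42.0, RLE scaling, no filter, symbols of either strain, a replicate block and leaving out each library. Fits ran in R 4.3.3, tables in Python 3.11.15 (pandas 2.3.3, numpy 2.4.6, scipy 1.17.1) and plots in matplotlib 3.10.9. An exact permutation test of 2 against 2 libraries cannot go below 0.33 and was not used. Gene positions, gene types and exons, and so the distances of peaks from gene starts, come from the GENCODE annotation. Promoters and peak sequences come from RefSeq on GRCm38.p6, the assembly behind mm10.

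Named genes were the 3 markers, the 20 identity genes with the highest ratio, members of 24 gene lists described by role, genes on each side of the fold of 4, and, for the strains, the 5 largest changes in each direction with a mean of at least 20 CPM and no overlap of the libraries, and up to 10 identity genes in each direction under the same conditions. Other named genes and the peaks were picked with their values in view. The members and lists were chosen with earlier results of these data known. Some genes within these rules are not reported here. DNA methylation was not used here.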

Additional observations from a re-analysis of the deposited data

How the results depend on the processing

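The 320 identity genes became 529 with a fold of 2, 201 with a fold of 8, 727 with all other nuclei pooled and 200 with counts per nucleus, and the cause was not tested beyond the construction of each rule. Leaving out 1 library gave 322 to 331, and the other settings gave 247 to 392. Among non-neuronal nuclei the share of microglia was 10.5% and 12.6% in B6 and 8.26% and 10.6% in D2, by the smaller total. With GAGGAA in place of GAGGAAGT 33.8% of promoter windows matched, since the letters are fewer.

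The 728 strain calls became 166 with DESeq2 (70 higher and 96 lower in D2, 26 of them identity genes), and the cause was not tested. Taking in symbols counted in 1 strain only, 473 were higher. Without 1 library 532 to 619 were called, 211 to 266 higher and 303 to 391 lower, with 50 to 57 identity genes. There the lone library of a strain is assumed to vary like the other strain. With the library number as a replicate block 621 were called, 237 higher and 384 lower, with 60 identity genes. Whether libraries of the same number form a pair is not given, and across 8245 symbols their deviations from the strain mean correlated at r = -0.086, a value across genes, which are not independent. RLE scaling gave 759 and no filter 911. Of 103 strain calls among identity genes, list members and the largest changes, none changed direction under any of these settings, and 51 were called without any 1 of the 4 libraries. DESeq2 called 42 of the 103 and the replicate block 94. With 50 CPM asked for in each strain, chosen after seeing the data, 52 identity genes were called in place of 65.

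The 74 peaks, and alternatives to them chosen after seeing the data, gave 118 at 10 CPM, 5 at 50 CPM, 218 at a fold of 2, 7 at a fold of 8, and 60 to 112 without 1 library. The 81 promoter peaks of identity genes with microglia highest became 71 to 89 without 1 library.

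Limits: 2 pools per strain give few degrees of freedom, and 23 to 54 microglial nuclei per accessibility library give few counts per peak. Counts are sums per label, so microglia, border-associated macrophages and RNA from other cells within the label were not told apart. The strains were mapped to different sequences. Levels carry no correction for gene length. Overlapping genes on opposite strands were not told apart.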

Other observations

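In D2 library 2, a few early response genes stood apart from the other 3 microglial columns. These genes were picked with their values in view, and only Jun had enough counts to be tested between the strains, where it was not called (edgeR adjusted p = 0.333). Ccl4, a chemokine of activated macrophages, stood at 157 CPM there (66 counts), against 5.93 and 4.11 CPM in B6 and 3.52 CPM in D2 library 3. Atf3, a stress-induced transcription factor, stood at 33.4 CPM, against 3.95 and 9.59 CPM in B6 and 3.52 CPM in D2 library 3. Jun stood at 95.4 CPM, against 35.6 and 41.1 CPM in B6 and 33.5 CPM in D2 library 3. The heat shock gene Hspa1a stood at 21.5 CPM, against 1.98 and 2.74 CPM in B6 and 0 in D2 library 3. Other genes of the same list did not follow, and Fos, Fosb and Il1b had no count in D2 library 2.

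Of the peaks high in microglia, the one with the largest difference between strains lies between genes, 39628 bases from the start of the chemokine receptor gene Ccr1, and had 10 and 13 counts in B6 and 123 and 66 in D2, or 16.5 and 37.6 CPM against 269 and 185 CPM. The difference at the peak was seen first and was not tested.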
